A study of Saccharomyces cerevisiae with 11 samples.

Results

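The vector control arrays of a budding yeast study were compared with each other, split by the order of the sample codes in their titles. The 4 arrays with codes JB11 to JB14, control replicates 4 to 7, are called late. The 3 arrays with codes JB03, JB04 and JB5, control replicates 1 to 3, are called early. These are 7 of the 11 arrays of the series. The other 4, from yeast expressing the human chloride channel CFTR, entered no test and serve only for distances between arrays and for ranges of levels. The labels do not say what the codes stand for, so early and late name the order of the codes, and neither a time in culture nor a treatment. All 7 arrays are of Saccharomyces cerevisiae carrying the plasmid pRSGPD426 without an insert. Both groups share that plasmid, the selective medium, growth at 26 degrees and harvest in mid log phase. The strain is not given in the sources used here. RNA abundance was measured on Affymetrix arrays, and the titles mark all 7 vector arrays as re-analysed. Levels are log2 of an intensity scaled to an array mean of 1, so 0 is the mean of an array, and they are relative within an array. A level under -1.14, the 95th percentile of probe sets matched to no S. cerevisiae gene, is called background level. No label ties an array to its own culture, although the series text mentions biological replicates, so the p-values reflect array-to-array spread that may be partly technical.

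The 7 arrays did not spread evenly. Over 5449 genes, the log2 differences between replicates 1 and 2 had an SD of 0.111, and those among replicates 5, 6 and 7 had SDs of 0.098 to 0.13. The median over the 21 pairs of vector arrays was 0.483. These 4 pairs, with SDs under 0.2, are called near-copies, and whether they share a culture or an extract is not given in the labels. Replicate 3 differed from replicates 1 and 2 by SDs of 0.504 to 0.515 and from the CFTR arrays by only 0.163 to 0.278. Over all genes the library labelled control replicate 3 thus lay nearer to the CFTR arrays than to any other vector array. Whether that label is right was not tested. Replicate 4 differed from the other late arrays by 0.296 to 0.341. The early group therefore holds 2 kinds of array and the late group 2 kinds, and differences are given below against replicates 1 and 2 and against replicate 3 where they diverge.

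**Figure D1:**
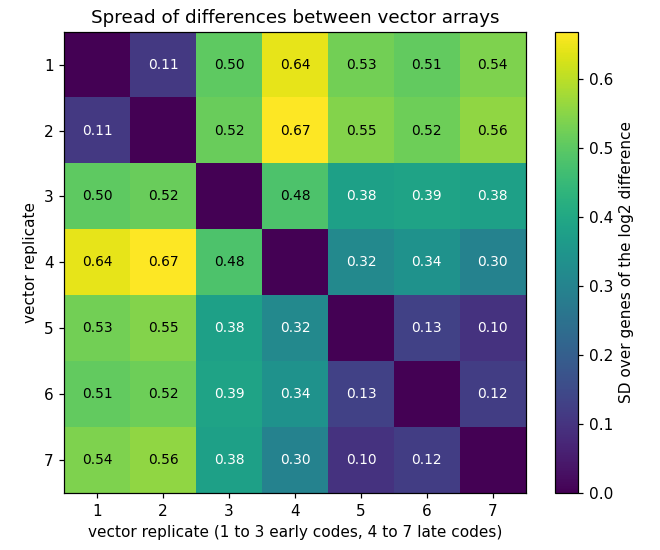
Standard deviation over 5449 genes of the log2 difference between each pair of vector arrays, with replicates 1 to 3 the early codes and 4 to 7 the late codes. Replicates 1 and 2 form 1 dark block and replicates 5, 6 and 7 another, with replicates 3 and 4 apart from both.

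Yeast reads the supply of each nutrient through its own regulator. Vhr1 acts on biotin genes, Thi2, Thi3 and Pdc2 on thiamine genes, Zap1 on zinc genes, Pho4 on phosphate genes and Aft1 on iron genes, and in each case scarcity raises the genes for uptake and synthesis. Growth on glucose holds respiratory genes low, and the Hap2/3/4/5 complex raises them when glucose repression eases or haem and oxygen are at hand. Ribosome synthesis follows growth rate, and the stress genes driven by Msn2 and Msn4 usually move the opposite way.

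With all 7 arrays counted as replicates, 1476 of 5449 genes passed an adjusted p under 0.05 in limma, which is 27.1% of those tested. Of these, 372 (6.83%) were higher in the late arrays and 1104 (20.3%) were lower. The median difference over all genes, late minus early, was -0.189 on the log2 scale, and it was 0.057 after median centring. Only 25.2% of the calls were higher, and that share was 44.7% after quantile normalization and 57.0% after median centring, so the excess of lower calls depends on the scaling. Quantile normalization called 27.9% of genes, 12.5% higher and 15.4% lower, and median centring called 23.2%, of which 13.2% of genes were higher.

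The count depends on the near-copies too. With near-copy pairs averaged (replicates 1 and 2, and replicates 5 and 7, which leaves replicate 6 as a sample of its own), 14 genes passed (0.257%), 12 of them higher (0.22%) and 2 lower (0.0367%), while 959 had an unadjusted p under 0.05. The 12 higher genes were BIO5, BIO3 and VHT1 of biotin supply, THI7, THI20 and PET18 of thiamine supply, ZPS1 and ADH4 of the zinc regulon, PUT1 and OPT2 of nitrogen supply, and ISF1 and MBR1. The 2 lower ones were PHO11, an acid phosphatase, and YCR102C. With replicates 5, 6 and 7 averaged together as well, which leaves 2 against 2 and was chosen after seeing the data, 16 genes passed (0.294%), 15 higher (0.275%) and 1 lower (0.0184%). That fit shared 11 genes with the first: MBR1, OPT2 and YCR102C missed the threshold (adjusted p = 0.096, 0.11 and 0.20), and BIO4, VEL1, YOR387C and THI73 were among the genes gained (adjusted p between 0.0051 and 0.032). With near-copies as a random block, 35 genes passed (0.642%), 23 higher (0.422%) and 12 lower (0.22%), with PUT1 missing the threshold (adjusted p = 0.063) and BIO2, PHO3, PDC5, ZAP1, INH1, AAC3, ATO3 and YDL241W among those gained (adjusted p between 0.012 and 0.046). The 3 fits called 38 genes between them and shared 10: BIO5, BIO3, VHT1, THI7, THI20, PET18, ZPS1, ADH4, ISF1 and PHO11. Genes called in none of these 3 fits passed only where near-copy arrays counted as separate replicates. At least 2-fold changes made up 108 of the calls with all 7 arrays, 59 higher and 49 lower.

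**Figure D2:**
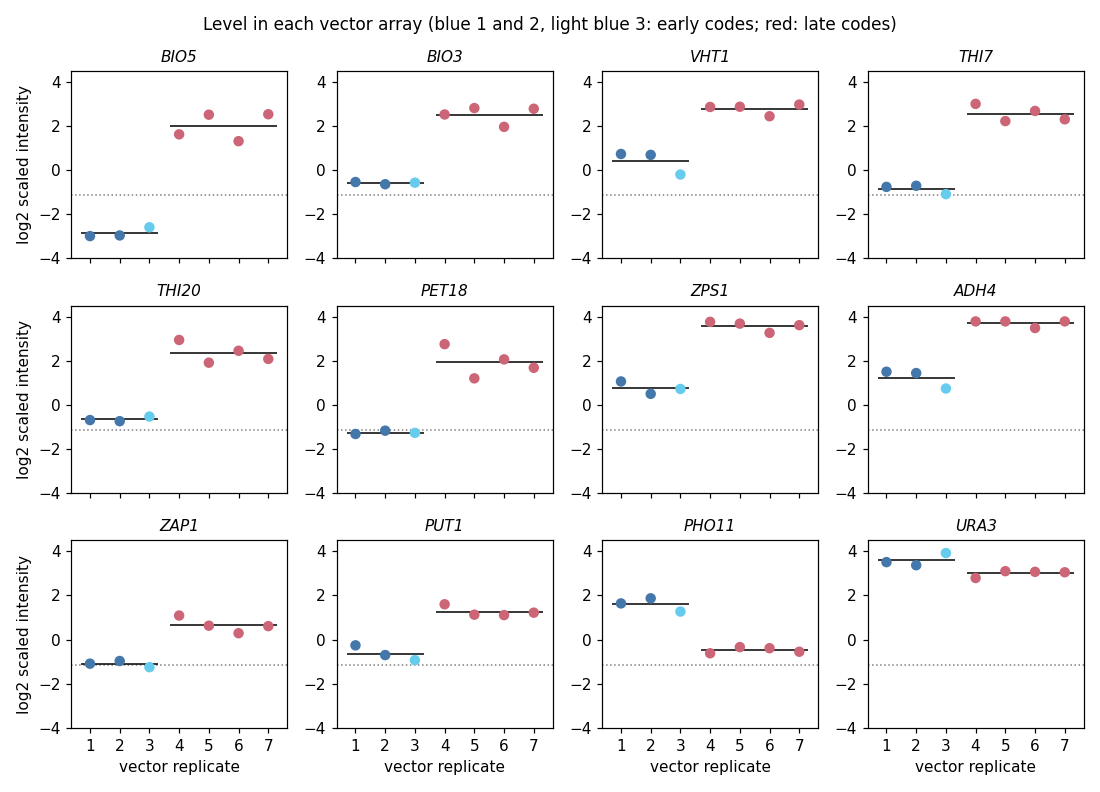
Log2 scaled intensity of 12 genes in each of the 7 vector arrays, with black lines at the group means and a dotted line at the background limit of -1.14. In the late arrays (red) the biotin, thiamine and zinc genes and PUT1 sit above every early array (blue and light blue), and PHO11 and URA3 sit below.

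The biotin genes showed the largest difference of any list. BIO5, a transporter of the biotin precursor 7-keto-8-aminopelargonic acid, was at -2.99, -2.96 and -2.59 in early replicates 1 to 3 and at 1.62, 2.51, 1.31 and 2.53 in late replicates 4 to 7. All 3 early values lay at background level, so the rise was at least 8.77-fold (limma, adjusted p = 0.00053). BIO3, an aminotransferase of biotin synthesis, was at -0.54, -0.64 and -0.57 in the early arrays and at 2.52, 2.81, 1.96 and 2.78 in the late ones. The groups did not overlap, and the rise was 8.59-fold (log2 difference 3.10, SE 0.20, adjusted p = 0.00053). VHT1, the plasma membrane biotin transporter, rose 5.19-fold, from 0.41 ± 0.52 (SD, n = 3) to 2.79 ± 0.23 (SD, n = 4), with replicate 3 the lowest of all (adjusted p = 0.0022).

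BIO4, dethiobiotin synthetase, was at background level in the early arrays, between -1.36 and -1.34, and at 1.81, 1.90, 0.66 and 1.84 in the late ones, a rise of at least 6.47-fold (adjusted p = 0.0022). BIO2, biotin synthase, rose 3.18-fold, from 0.61 ± 0.23 to 2.28 ± 0.31 (adjusted p = 0.0032). With near-copy pairs averaged, BIO4 and BIO2 missed the threshold (adjusted p = 0.067 and 0.075), and with all near-copies averaged BIO4 passed (adjusted p = 0.0051) and BIO2 did not (adjusted p = 0.095). In all, 5 of the 6 biotin genes were called higher (83.3%, against 6.83% of all genes) and none lower. The median difference was 2.64 against -0.189 over all genes. The exception was BPL1, the ligase that attaches biotin to carboxylases, a gene of use rather than supply, at 0.43 ± 0.48 early and -0.12 ± 0.23 late (adjusted p = 0.095). The median was similar against replicates 1 and 2 (2.49) and against replicate 3 (2.94).

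VEL1 and YOR387C, a pair of near-identical genes whose probe sets may cross-hybridise, were also among the largest rises. VEL1 was at -3.54, -3.70 and -3.53 in the early arrays and at 0.55, 0.28, -1.12 and 0.34 in the late ones, at least 2.22-fold higher (adjusted p = 0.0023). YOR387C was at -2.09, -2.78 and -2.21 and then at 2.34, 1.33, -0.10 and 1.56, at least 5.36-fold higher (adjusted p = 0.0073). Both had their lowest late value in replicate 6, as did BIO3, BIO4, BIO5 and VHT1 but not BIO2. The zinc genes ZPS1, ADH4, ZAP1, ZRT1, ZRT3 and MCD4, described below, were also lowest there among the late arrays. VEL1 and YOR387C missed the threshold with near-copy pairs averaged, where replicate 6 stands alone (adjusted p = 0.075 and 0.15) and passed with all near-copies averaged (adjusted p = 0.0059 and 0.030).

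Thiamine genes rose next to the biotin genes. THI7, the plasma membrane thiamine transporter, was at -0.76, -0.71 and -1.09 in the early arrays and at 3.00, 2.22, 2.68 and 2.30 in the late ones. The groups were far apart, and the rise was 10.6-fold (log2 difference 3.40, SE 0.20, adjusted p = 0.00047). THI20, a kinase of the thiamine pyrimidine precursor, was at -0.69, -0.74 and -0.53 and then at 2.94, 1.91, 2.45 and 2.08, a 7.98-fold rise (adjusted p = 0.00071). PET18, a thiamine-regulated gene related to the thiaminase domain of THI20, went from a background level of -1.25 ± 0.08 to 1.92 ± 0.66, at least 8.37-fold (adjusted p = 0.0022).

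THI73, a putative plasma membrane permease regulated by thiamine, was at -2.11, -2.09 and -2.53 in the early arrays and at 2.54, 0.43, 1.60 and 0.95 in the late ones, at least 5.73-fold higher (adjusted p = 0.005). PHO3, an acid phosphatase that frees thiamine from its phosphates, rose 3.07-fold, from 1.13 ± 0.37 to 2.75 ± 0.28 (adjusted p = 0.0057). THI2, an activator of these genes, rose at least 1.54-fold from background level (adjusted p = 0.012), and THI6, which joins the thiazole and pyrimidine rings, rose 2.31-fold (adjusted p = 0.041). Both were named after their values were seen. With near-copy pairs averaged, these 4 had adjusted p between 0.062 and 0.20, and THI73 passed with all near-copies averaged (adjusted p = 0.032).

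THI4, which makes the thiazole ring of thiamine, was above every early array in all 4 late arrays but varied widely among them. Its late levels were 3.48, -0.97, 1.11 and -0.05, against -1.42, -1.44 and -1.93 in the early arrays, and it missed the threshold (adjusted p = 0.072). Replicate 4 was the highest and replicate 5 the lowest late array for THI4, THI6, THI7, THI20, THI73 and PET18. The late arrays thus differed among themselves in thiamine genes, in an order that 6 genes shared.

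Among vitamin B6 genes, SNZ3, a copy of a pyridoxal phosphate synthase subunit that is tied to thiamine synthesis, rose 3.44-fold, from -0.41, -0.71 and -1.13 to 1.71, 0.53, 1.16 and 0.75 (adjusted p = 0.010), and SNO3, its partner, rose 1.77-fold (adjusted p = 0.038). SNZ2 and SNZ3 are near-identical, so a probe set for one may measure both. SNZ1, the copy known for entry into stationary phase, fell by 0.64 on the log2 scale (adjusted p = 0.018). SNO1, its partner, lay at background level in all 7 arrays, so its call gives no size (adjusted p = 0.0083). With near-copy pairs averaged the 4 had adjusted p between 0.12 and 0.24. Over the 22 measured thiamine and vitamin B6 genes, of 27 listed, 9 rose (40.9%, against 6.83% of all genes) and 2 fell (9.09%, against 20.3%). The median difference was 0.55.

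PDC5, a pyruvate decarboxylase that uses thiamine diphosphate and whose transcript is known to rise when thiamine is scarce, was at 1.11, 1.14 and 1.07 in the early arrays and at 3.74, 2.13, 3.40 and 2.31 in the late ones. It rose 3.45-fold (adjusted p = 0.020, 0.16 with near-copy pairs averaged and 0.046 as a random block). ARO10, a decarboxylase of aromatic and branched 2-oxo acids, rose at least 1.73-fold from background level, to -0.33, -0.23, -0.84 and 0.01 (adjusted p = 0.0098, and 0.16 with near-copy pairs averaged).

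Several zinc-regulated genes were higher in the late arrays, and none was called lower. ZPS1, a cell wall protein induced when zinc is short, was at 1.06, 0.50 and 0.72 in the early arrays and at 3.76, 3.68, 3.26 and 3.61 in the late ones, a 7.06-fold rise (log2 difference 2.82, SE 0.16, adjusted p = 0.00047). ADH4, an alcohol dehydrogenase that Zap1 raises in low zinc, was at 1.5, 1.44 and 0.74 and then at 3.78, 3.78, 3.48 and 3.78, a 5.57-fold rise (adjusted p = 0.0007). ZAP1, the activator that reads zinc and raises its own gene, rose 3.37-fold, from -1.09, -0.97 and -1.25 to 1.09, 0.63, 0.29 and 0.61 (adjusted p = 0.0023, and 0.075 with near-copy pairs averaged).

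The transporters moved less. ZRT3, which releases zinc from the vacuole, rose 1.69-fold (adjusted p = 0.024), and ZRT1, the high-affinity importer, rose 1.52-fold from an already bright 3.20 ± 0.10 to 3.81 ± 0.08 (adjusted p = 0.0064). MCD4, a gene of GPI anchor synthesis in the Zap1 regulon, rose 1.31-fold (adjusted p = 0.043) and was named after its values were seen. These 3 had adjusted p of 0.16 to 0.25 with near-copy pairs averaged. Of the 14 zinc regulon genes, 6 rose (42.9%, against 6.83% of all genes) and none fell, with a median of 0.39. The median was 0.41 against replicates 1 and 2 and 0.48 against replicate 3. CTR1, the copper importer, was at 0.57, 0.58 and -1.13 early and at 1.73, 1.28, 1.20 and 1.19 late, and rose 2.54-fold (adjusted p = 0.044, and 0.20 with near-copy pairs averaged).

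Iron genes separated 1 late array from the other late arrays rather than late from early. FIT2, a mannoprotein that retains iron carriers in the cell wall, was at 3.63 in replicate 4, between -0.92 and -0.30 in replicates 5 to 7 and between -1.12 and -0.39 in the early arrays (late minus early, adjusted p = 0.34). In replicate 4, 16 of the 29 iron regulon genes stood at least 1 log2 unit above the mean of replicates 5 to 7 and none stood that far below, against 0.991% of all genes above and 0.128% below. ARN2, a siderophore transporter, was at 2.74 in replicate 4, between -1.49 and -1.21 in replicates 5 to 7 and between -1.16 and -0.27 in the early arrays. TIS11, an RNA-binding protein that lowers iron-using transcripts, was at 1.87 against -2.23 to -0.97, and between -1.55 and -0.67 in the early arrays. Not every member stood apart from the early arrays: ENB1 was at 0.85 in replicate 4 and 0.88 in replicate 1, and FRE6 at 0.87 and 0.84. CYC1, cytochrome c, had its lowest late value in replicate 4, at 1.78 against 2.91 to 3.08. No iron regulon gene was called between the groups, and its median difference was 0.10.

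More phosphate genes were lower than higher in the late arrays, as was so over all genes. PHO11, a secreted acid phosphatase nearly identical to PHO12, was at 1.64, 1.87 and 1.27 early and at -0.62, -0.34, -0.39 and -0.55 late, a 4.20-fold fall (log2 difference -2.07, SE 0.15, adjusted p = 0.0007). PHO5, the main repressible acid phosphatase, was at 0.98, 1.31 and 0.79 and then at -0.54, 0.27, 0.29 and 0.01, a 2.03-fold fall (adjusted p = 0.020). VTC3 and VTC2, subunits of the complex that makes polyphosphate, fell 2.01-fold and 1.5-fold (adjusted p = 0.012 and 0.0076).

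PHO8, the vacuolar alkaline phosphatase, fell 1.45-fold (adjusted p = 0.0065, but 0.11 after median centring). PHO84, the high-affinity phosphate importer, was at 2.69 ± 0.12 early and 2.12 ± 0.36 late and missed the threshold (adjusted p = 0.053). In all, 9 of 25 phosphate genes fell (36.0%, against 20.3% of all genes) and 1 rose (4.0%, against 6.83%), with a median of -0.38. PHO11 alone passed with near-copy pairs averaged. The median was -0.55 against replicates 1 and 2 and -0.12 against replicate 3, beside all-gene medians of -0.268 and -0.02.

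Genes of poor nitrogen sources were called in both directions, though lower calls were fewer than the share of all genes. PUT1, proline oxidase, was at -0.26, -0.70 and -0.93 in the early arrays and at 1.60, 1.13, 1.11 and 1.22 in the late ones, a 3.72-fold rise (adjusted p = 0.0022). OPT2, an oligopeptide transporter, rose 2.73-fold, from -0.39 ± 0.17 to 1.05 ± 0.10 (adjusted p = 0.0007). DAL80 and GAT1, a repressor and an activator of the GATA family that set these genes, rose 2.41-fold and 1.55-fold (adjusted p = 0.028 and 0.018, and 0.24 and 0.22 with near-copy pairs averaged). DAL80 was at -2.11, -1.98 and -0.89 in the early arrays, so 2 of them lay at background level and replicate 3 lay between those and the late arrays, which were at 0.08, -0.42, -0.57 and -0.65.

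MEP2, the ammonium permease, was at 2.08, 2.16 and 3.03 early and between 3.02 and 3.15 late (adjusted p = 0.053), and replicate 3 lay within the late range. Over 31 genes under nitrogen catabolite repression, 6 rose (19.4%, against 6.83% of all genes) and 4 fell (12.9%, against 20.3%), with a median of 0.19. The counts were 10 higher and 2 lower after quantile normalization and 10 and 1 after median centring, so the balance depends on the scaling. ATO3, an ammonium exporter of the plasma membrane, fell 3.22-fold, from 1.72, 1.69 and 1.20 to -0.55, 0.18, -0.19 and -0.03 (adjusted p = 0.0039, and 0.075 with near-copy pairs averaged).

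As scaled by the authors, amino acid synthesis genes were called about as often as all genes. Of 63 genes 13 were lower (20.6%) and 4 higher (6.35%), beside 20.3% and 6.83% over all genes, with a median of -0.16. SER2, the last enzyme of serine synthesis, fell 1.90-fold, from 0.77 ± 0.18 to -0.15 ± 0.16 (adjusted p = 0.0065). ORT1, the mitochondrial ornithine carrier, HIS7, of histidine synthesis, and TRP2, of tryptophan synthesis, fell 1.76-fold, 1.63-fold and 1.59-fold (adjusted p between 0.0078 and 0.0083). HIS4 fell 1.72-fold, from 2.38, 2.47 and 3.01 to 1.67, 1.86, 2.02 and 1.81 (adjusted p = 0.018, but 0.13 after median centring). ARG3, of arginine synthesis, rose 1.5-fold (adjusted p = 0.023). None of these 6 passed with near-copy pairs averaged (adjusted p between 0.16 and 0.19). After median centring the list had 5 lower calls and 4 higher ones. After quantile normalization it had 23 lower and 3 higher, where 15.4% of all genes were lower and 12.5% higher. Its median was then -0.21, against -0.035 over all genes. Purine and pyrimidine synthesis had 7 lower calls (21.9%, near the 20.3% of all genes) and no higher one among 32 genes. That list had 9 lower and none higher after quantile normalization, with a median of -0.20, and no call of either kind after median centring.

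Several glucose transporters rose. HXT4, a transporter of intermediate to high affinity, was at 2.14, 2.04 and 2.38 in the early arrays and at 2.88, 2.89, 2.93 and 3.03 in the late ones, a 1.68-fold rise (adjusted p = 0.0058). HXT7, of high affinity and nearly identical to HXT6, rose 1.67-fold (adjusted p = 0.034), with replicate 3 at 2.89 and replicates 1 and 2 at 2.16 and 1.99 against 3.00 to 3.15 late. HXT3, of low affinity, rose 1.30-fold (adjusted p = 0.016, but 0.22 after quantile normalization). SNF3, a sensor of low glucose, was at background level in the early arrays, which bounds its rise at 1.02-fold (adjusted p = 0.022).

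Of 17 transporters and sensors, 5 were called higher (29.4%, against 6.83% of all genes) and none lower (20.3% of all genes), with a median of 0.24. Among the 5, 1 lay at background level in both groups. Of 28 genes of glucose signalling and repression, 2 rose (7.14%) and 5 fell (17.9%), near the 6.83% and 20.3% of all genes. MIG2, a glucose-induced repressor, rose 2.29-fold (adjusted p = 0.027) and MTH1, which holds transporter genes down when glucose is absent, rose 1.61-fold (adjusted p = 0.018). REG1, a regulator of the phosphatase Glc7 in glucose repression, was at 0.14, 0.18 and -0.69 in the early arrays and between -0.96 and -0.84 in the late ones, a 1.71-fold fall (adjusted p = 0.034). SNF1, the kinase that relieves glucose repression, YCK2, a casein kinase of glucose sensing, CYR1, adenylate cyclase, and PDE2, a cyclic AMP phosphodiesterase, fell 1.41-fold to 1.51-fold (adjusted p between 0.026 and 0.042, PDE2 at 0.060 after median centring and CYR1 at 0.050 after quantile normalization). In all 5, replicate 3 lay nearer to the late arrays than replicates 1 and 2 did. These 5 had adjusted p of 0.26 to 0.31 with near-copy pairs averaged. The transporters, the sensor, MIG2 and MTH1 had adjusted p of 0.15 to 0.27 in that fit.

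Genes for carbon sources other than glucose stayed dim. PCK1, the first enzyme of gluconeogenesis, was at -0.95, -1.19 and -1.06 early and at -0.30, -0.52, -0.65 and -0.47 late, a 1.5-fold rise (adjusted p = 0.017). CAT8, the activator of such genes, was at background level in all 7 arrays. Among the 24 genes of gluconeogenesis, the glyoxylate cycle and non-fermentable carbon, 5 were called higher (20.8%, against 6.83% of all genes) and none lower (20.3% of all genes). The median was 0.07, but 4 of the 5 lay at background level in both groups and PCK1 was the exception. None of them passed with near-copy pairs averaged.

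Glycolysis and fermentation had 7 of 22 genes higher (31.8%, against 6.83% of all genes) and none lower (20.3% of all genes), with a median of 0.38. The counts were 4 higher and 3 lower after quantile normalization. TDH1, a glyceraldehyde-3-phosphate dehydrogenase, was at 2.51, 2.53 and 3.51 early and at 4.0, 3.76, 3.62 and 3.78 late (1.92-fold, adjusted p = 0.031). ENO1, enolase, rose 1.44-fold (adjusted p = 0.031, but 0.054 after median centring). In both genes replicate 3 lay near the late arrays, and the list's median was 0.53 against replicates 1 and 2 and 0.04 against replicate 3. Values of bright genes were compressed in replicates 1 and 2, where the 95th percentile over genes lay at 2.69 and 2.67, against 2.88 to 2.93 in the other 5 arrays. The share of that compression in the rises of bright genes was not tested.

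**Figure D3:**
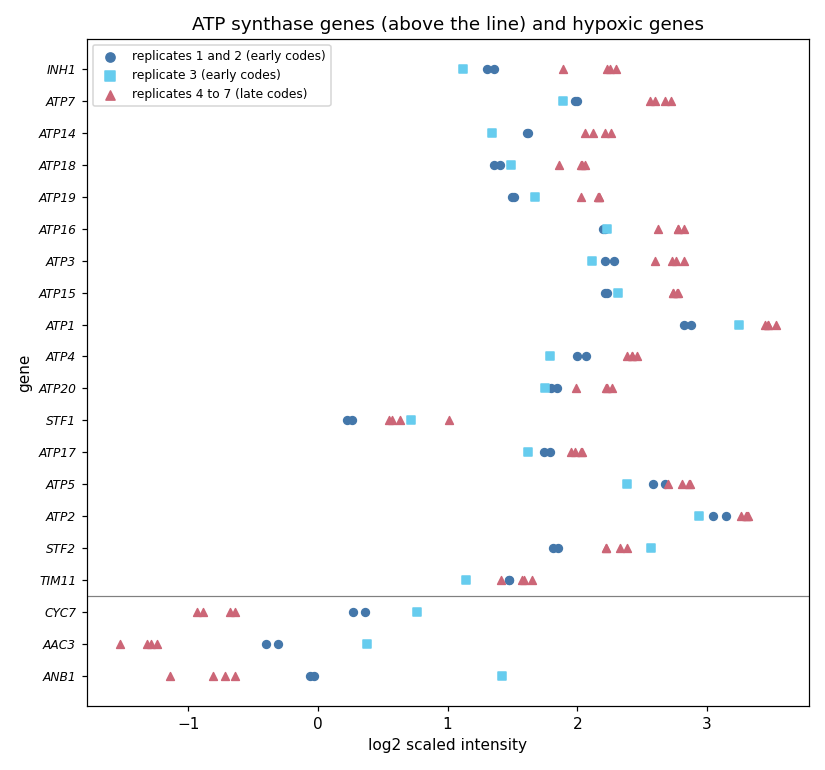
Log2 scaled intensity of the 17 ATP synthase genes and of CYC7, AAC3 and ANB1 in each vector array, with circles for replicates 1 and 2, squares for replicate 3 and triangles for the late arrays. In 14 of the 17 ATP synthase genes the triangles lie to the right of every early array, and in the 3 hypoxic genes they lie to the left. Of all 5449 genes, 588 had every late array above every early one, and 1515 had every late array below.

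Among respiratory genes, those of the ATP synthase rose most evenly. ATP7, a stator subunit, was at 1.98, 2.0 and 1.89 in the early arrays and at 2.56, 2.68, 2.72 and 2.60 in the late ones, a 1.60-fold rise (log2 difference 0.68, SE 0.07, adjusted p = 0.0027). ATP14, subunit h of the stator, was at 1.61, 1.62 and 1.34 and then at 2.06, 2.21, 2.26 and 2.12, a 1.56-fold rise (adjusted p = 0.0085), and was named after its values were seen. INH1, the inhibitor that stops ATP hydrolysis by the enzyme, rose 1.88-fold, from 1.26 ± 0.13 to 2.17 ± 0.19 (adjusted p = 0.0058). Its late values all lay above its early ones.

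Of 17 genes of the ATP synthase list, 13 rose (76.5%, against 6.83% of all genes) and none fell (20.3% of all genes). The counts were 13 and 15 higher with none lower after quantile normalization and median centring. The median was 0.50, or 0.49 against replicates 1 and 2 and 0.45 against replicate 3, beside all-gene medians of -0.268 and -0.02. Both kinds of early array thus gave a similar size as scaled, but the excess over all genes was larger against replicates 1 and 2. None of the 13 passed with near-copy pairs averaged, where ATP7, ATP14 and INH1 had adjusted p of 0.10 to 0.16, and INH1 passed with near-copies as a random block (adjusted p = 0.034).

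Electron transport genes were more uneven. QCR8, of the cytochrome bc1 complex, rose 1.42-fold, from 2.12 ± 0.04 to 2.63 ± 0.12 (adjusted p = 0.010), and COX13, of cytochrome oxidase, rose 1.42-fold, from 1.71 ± 0.04 to 2.22 ± 0.14 (adjusted p = 0.012). CYB2, lactate dehydrogenase, lay at background level in all early arrays and around the limit in the late ones, so its higher call gives no size (adjusted p = 0.019). CYC1 was at 2.53, 2.49 and 0.49 in the early arrays and at 1.78, 2.91, 3.08 and 2.92 in the late ones (adjusted p = 0.24): replicate 3 was the lowest of all, replicate 4 the next lowest, and the groups overlapped. Over the 26 genes, 6 were called higher (23.1%, against 6.83% of all genes) and 1 lower (3.85%, against 20.3%). After quantile normalization 7 were higher and 1 lower, and after median centring 18 and 1, so the count depends on the scaling. The list's median as scaled by the authors was 0.40, or 0.21 against replicates 1 and 2 and 0.79 against replicate 3.

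In the TCA cycle 4 of 23 genes rose (17.4%, against 6.83% of all genes) and 1 fell (4.35%, against 20.3%), with a median of 0.12. MDH1, mitochondrial malate dehydrogenase, was at 1.56, 1.48 and 1.67 and then at 2.20, 2.20, 2.29 and 2.21, a 1.57-fold rise (adjusted p = 0.0036), and SDH3, a membrane anchor of succinate dehydrogenase, rose 1.38-fold (adjusted p = 0.014). Mitochondrial ribosomal protein genes had 9 of 75 higher and none lower, and 25 and 33 higher with none lower after quantile normalization and median centring. RTC6 and MRPL36, both of the large subunit, rose 1.63-fold and 1.52-fold (adjusted p = 0.0058 and 0.012). The list's median was -0.02 against replicates 1 and 2 and 0.50 against replicate 3, and none of the genes of these 3 lists passed with near-copy pairs averaged.

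ISF1 and MBR1, related genes whose extra copies relieve growth defects of hap mutants, passed with near-copy pairs averaged (adjusted p = 0.038 for both), and with all near-copies averaged ISF1 passed and MBR1 did not (adjusted p = 0.045 and 0.096). ISF1 was at -0.45, -0.46 and 0.19 in the early arrays and at 2.12, 1.66, 1.83 and 1.83 in the late ones, a 4.28-fold rise (log2 difference 2.10, SE 0.18, adjusted p = 0.0014). MBR1, named after its values were seen, was at -2.71, -2.66 and -2.45 and then at -0.78, -1.14, -1.05 and -0.91, which is at least 1.12-fold since the early values lay at background level (adjusted p = 0.0007). HAP4, the limiting subunit of the activator of respiratory genes, was at 0.97, 0.78 and -0.06 early and at 1.37, 1.18, 1.33 and 1.14 late, above every early array, and missed the threshold (adjusted p = 0.055). The 18 listed genes of the mitochondrial genome were not analysed here.

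Genes of the oxygen response went both ways, and genes known to rise in low oxygen were among both the lower and the higher calls. CYC7, the cytochrome c isoform of low oxygen, was at 0.36, 0.27 and 0.76 in the early arrays and at -0.89, -0.93, -0.64 and -0.68 in the late ones, a 2.38-fold fall (adjusted p = 0.0039). AAC3, the hypoxic ADP/ATP carrier, fell at least 2.04-fold to background level (adjusted p = 0.0095). ANB1, the hypoxic form of the translation factor eIF5A, was at -0.06, -0.03 and 1.42 and then at -1.14, -0.81, -0.72 and -0.64, a 2.42-fold fall (adjusted p = 0.037, but 0.11 after quantile normalization and after median centring).

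Other genes that low oxygen raises were higher in the late arrays. PAU23, a cell wall mannoprotein of anaerobic growth, was at 2.24, 2.04 and 2.48 early and between 2.82 and 2.89 late, a 1.52-fold rise (adjusted p = 0.012). TIR2, a cell wall mannoprotein of cold shock and anaerobic growth, rose 1.40-fold (adjusted p = 0.017), and OLE1, the fatty acid desaturase, rose 1.36-fold (adjusted p = 0.031). AAC1, the aerobic ADP/ATP carrier, rose 1.74-fold (adjusted p = 0.014). ROX1, the haem-dependent repressor of hypoxic genes, rose 1.57-fold (adjusted p = 0.041) and was named after its values were seen. HEM13, a haem synthesis enzyme induced in low oxygen, was at 3.25 in replicate 3 and between 1.06 and 2.0 in the other 6 arrays, with no difference called (adjusted p = 0.61). Over the 26 oxygen-responsive genes, 6 rose (23.1%, against 6.83% of all genes) and 4 fell (15.4%, against 20.3%). None of them passed with near-copy pairs averaged (the 8 named with a call at 0.075 to 0.28). FEX1, a fluoride exporter nearly identical to FEX2, fell 2.45-fold and, like ANB1, was highest in replicate 3 (adjusted p = 0.027, but 0.077 and 0.084 after quantile normalization and median centring).

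**Figure D4:**
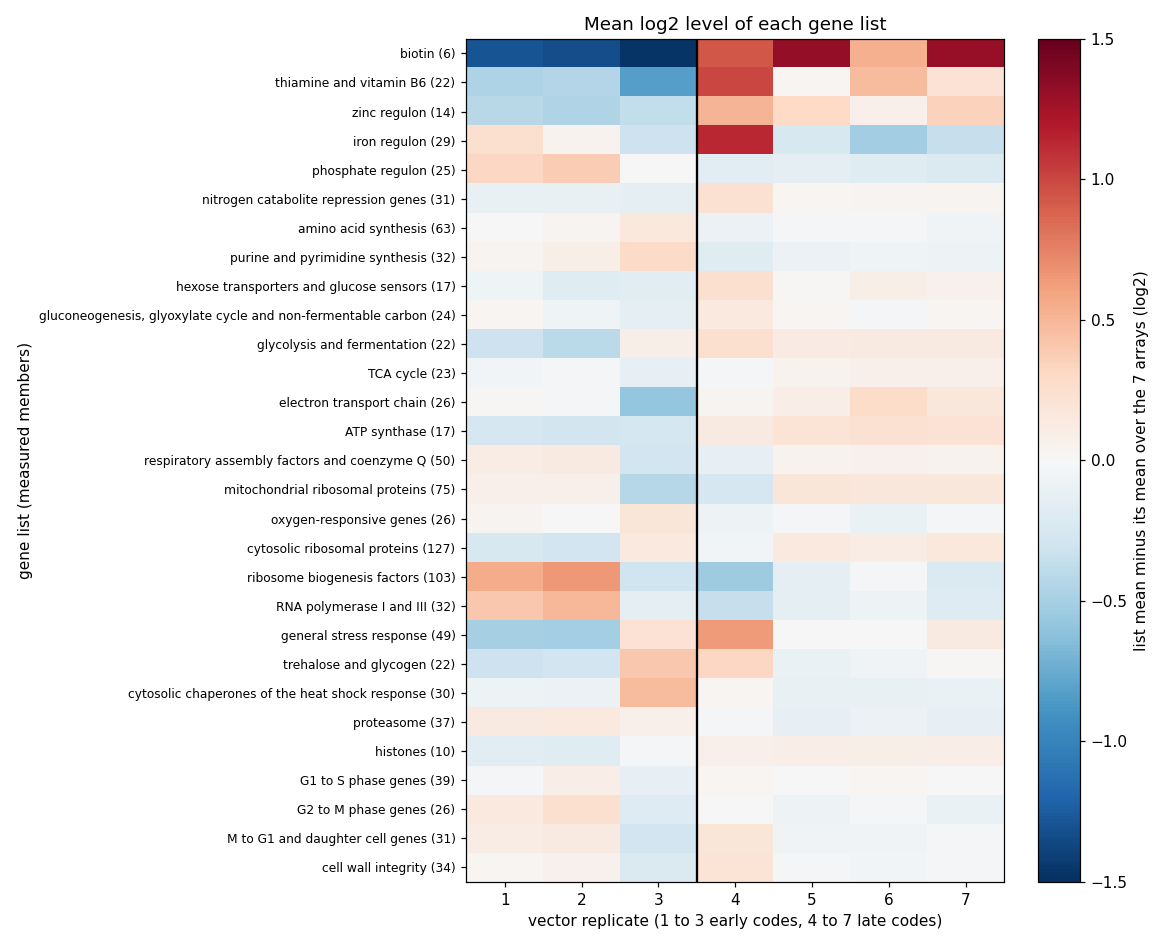
Mean log2 level of each gene list in each vector array, less the list's mean over the 7 arrays, with measured members in brackets and a black line between early and late codes. Biotin, thiamine, zinc and ATP synthase lists change at the line, whereas ribosome biogenesis and general stress separate replicates 1 and 2 from the other 5 arrays and iron separates replicate 4.

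Growth state genes separated replicates 1 and 2 from the rest more than late from early. Ribosome biogenesis factors had 12 of 103 genes lower (11.7%, under the 20.3% of all genes) and none higher, with a median of -0.55. NOG2, a GTPase of large subunit assembly, was at 1.53, 1.66 and 0.66 in the early arrays and at -0.19, 0.37, 0.53 and 0.39 in the late ones, a 2.01-fold fall (adjusted p = 0.033). RRP5, needed for both subunits, fell 1.81-fold (adjusted p = 0.012). UTP9 and UTP5, of the small subunit processome, fell 2.18-fold and 2.08-fold (adjusted p = 0.033 and 0.038), the second of them named after its values were seen, and DBP8, a helicase, fell at least 1.53-fold (adjusted p = 0.029). In all 5, replicate 3 lay between replicates 1 and 2 and the late arrays.

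The median of the biogenesis list was -0.85 against replicates 1 and 2 and 0.07 against replicate 3. Without replicate 3, 89 of the 103 genes (86.4%) were called lower and 1 higher, but so were many others: 70.9% of all genes were then called, 53.8% lower and 17.1% higher. RNA polymerase I and III had 6 of 32 genes lower (18.8%, near the share of all genes) and none higher, RPA34 of polymerase I falling 1.93-fold (adjusted p = 0.027), with medians of -0.69 and -0.07 against the same arrays. Cytosolic ribosomal proteins had 3 of 127 genes higher (2.36%, against 6.83% of all genes) and none lower (20.3% of all genes). They had 2 higher and 5 lower after quantile normalization, and none called after median centring. Their median was 0.40 against replicates 1 and 2 and -0.03 against replicate 3. Without replicate 3, 109 of the 127 (85.8%) were called higher, so these counts, like that over all genes, turn on that array.

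General stress genes, taken as a list, split the arrays in the same place, but not every called member did. In AGX1 and MPC3 replicate 3 was the lowest of all, at -1.27 and -1.46, under replicates 1 and 2. HSP12, a membrane-associated stress protein, was at 0.35, 0.30 and 2.01 in the early arrays and at 3.57, 3.05, 2.85 and 3.18 in the late ones, a 4.85-fold rise (adjusted p = 0.012). OM14, a mitochondrial outer membrane protein in the list, rose 1.90-fold (adjusted p = 0.0073), and USV1, a zinc finger regulator named after its values were seen, rose 2.55-fold from 2 early values at background level and 1 above it (adjusted p = 0.019). HSP26, a small heat shock protein, was at -1.43, -1.35 and 1.94 early and at 3.05, 1.25, 1.33 and 1.63 late, so the groups overlapped (adjusted p = 0.090).

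GPH1, glycogen phosphorylase, was at -0.03 and 0.17 in replicates 1 and 2, at 2.31 in replicate 3 and between 1.13 and 1.83 in the late arrays (adjusted p = 0.37). Of 49 stress genes 12 rose (24.5%, against 6.83% of all genes) and 2 fell (4.08%, against 20.3%). The list's median was 0.37, which was 0.70 against replicates 1 and 2 and -0.04 against replicate 3. Trehalose and glycogen genes had 1 of 22 called each way (4.55%, against 6.83% of all genes higher and 20.3% lower). The list means of stress and of trehalose and glycogen genes were highest in replicates 3 and 4.

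Several heat shock chaperones were lower in the late arrays. STI1, a cochaperone joining Hsp70 and Hsp90, was at 2.32, 2.25 and 2.33 in the early arrays and at 1.78, 1.75, 1.75 and 1.67 in the late ones, a 1.47-fold fall (adjusted p = 0.0043, but 0.10 after median centring). YDJ1, an Hsp40, fell 1.55-fold (adjusted p = 0.0064, but 0.065 after median centring), and CUR1, a sorting factor for misfolded protein, fell 2.06-fold (adjusted p = 0.004). HSP104, the disaggregase, fell 1.51-fold (adjusted p = 0.036, but 0.28 after median centring). STI1, YDJ1 and HSP104 kept their calls after quantile normalization (adjusted p between 0.0016 and 0.025). The list had 8 of 30 genes lower (26.7%, against 20.3% of all genes) and 1 higher (3.33%, against 6.83%), with a median of -0.24. After quantile normalization 12 were lower and none higher, with a median of -0.23, and 15.4% of all genes were lower. After median centring 2 were lower and none higher, with a median of 0.01. As scaled by the authors, the list's median was -0.09 against replicates 1 and 2 (all genes -0.268) and -0.54 against replicate 3 (all genes -0.02).

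Proteasome genes had 17 of 37 lower (45.9%, against 20.3% of all genes) and 2 higher (5.41%, against 6.83%). After quantile normalization 15 were lower and 3 higher, with a median of -0.16, and 15.4% of all genes were lower. After median centring 2 were lower and 3 higher, with a median of -0.02. The excess of lower calls thus held under quantile normalization and not under median centring. RPN13, a ubiquitin receptor, fell 1.56-fold (adjusted p = 0.0048), PRE5, of the core, fell 1.43-fold (adjusted p = 0.0064, but 0.069 after median centring), and UMP1, a core assembly factor, rose 1.57-fold (adjusted p = 0.014). None of the growth, stress, chaperone or proteasome genes passed with near-copy pairs averaged.

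**Figure D5:**
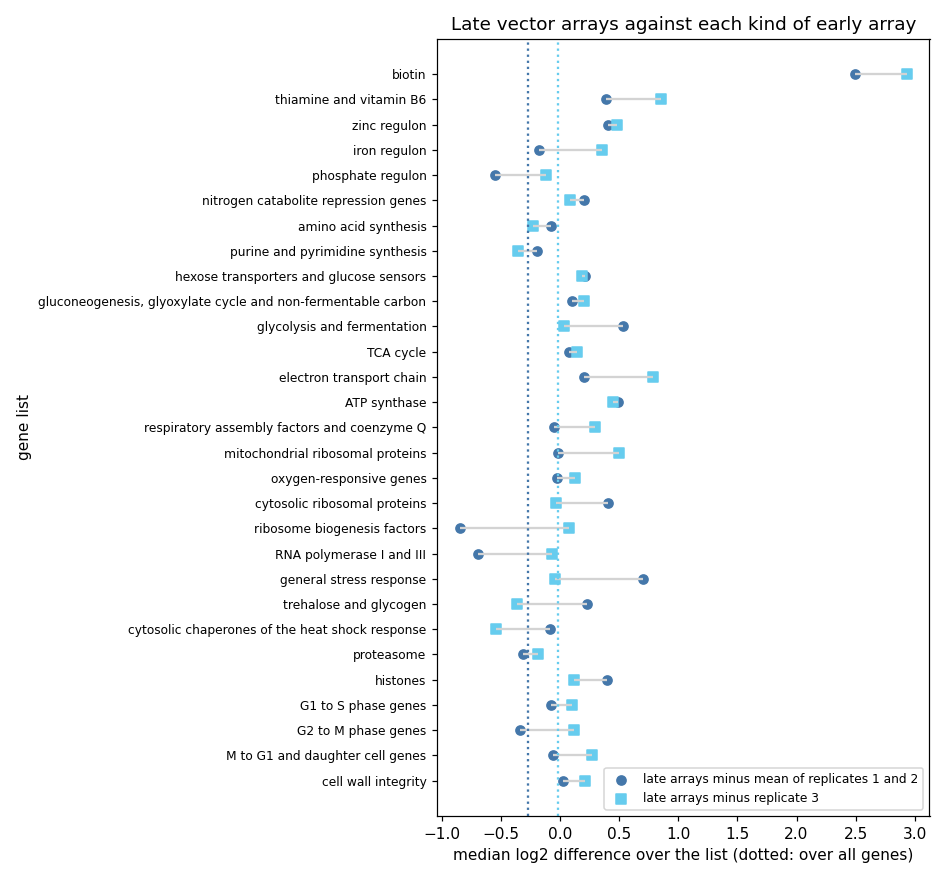
Median log2 difference over each gene list of the late arrays from the mean of replicates 1 and 2 (circles) and from replicate 3 (squares), with the medians over all genes dotted. Both symbols lie together above 0 for biotin, zinc and ATP synthase, and far apart for ribosome biogenesis, general stress and electron transport.

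Cell cycle lists gave a mixed picture. Histones had 6 of 10 genes higher (60.0%, against 6.83% of all genes) and none lower. After quantile normalization 5 were higher and none lower, but none were called after median centring. Of the genes of G1 to S phase 7 of 39 rose (17.9%, against 6.83% of all genes) and 2 fell (5.13%, against 20.3%). RNR1, the large subunit of ribonucleotide reductase, rose 1.36-fold (adjusted p = 0.012). CLB1, a mitotic cyclin, rose 1.41-fold (adjusted p = 0.016) among 4 higher and 1 lower of 26 genes of G2 to M phase. DSE2 and CTS1, a daughter cell glucanase and the chitinase of cell separation, rose 1.41-fold and 1.28-fold (adjusted p = 0.013 and 0.023, CTS1 at 0.17 after quantile normalization) among 3 higher and none lower of 31 genes. Cell wall integrity genes had 8 of 34 higher (23.5%) and 1 lower (2.94%). The share higher was 15.4% for G2 to M phase and 9.68% for the daughter cell list, against 6.83% of all genes. With near-copy pairs averaged none of these genes passed (the 4 named at 0.18 to 0.24).

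Among the largest falls outside these lists, several were set by replicates 1 and 2. GPD2, a glycerol-3-phosphate dehydrogenase of redox balance, was at 0.87, 0.85 and -0.74 in the early arrays and at -1.43, -1.14, -1.5 and -1.20 in the late ones, a fall to background level of at least 2.76-fold (adjusted p = 0.023). The same layout, with replicate 3 nearer to the late arrays, held for ATF2, an alcohol acetyltransferase, CAB3, of coenzyme A synthesis, DUS3, a tRNA dihydrouridine synthase, BUR2, a cyclin of transcription elongation, and YBL112C (adjusted p between 0.028 and 0.038). ATF2 fell 2.49-fold, and the other 4 reached background level, which bounds their falls at 1.37-fold for CAB3, 1.72-fold for DUS3, 1.22-fold for BUR2 and 2.36-fold for YBL112C. YBL112C was at 0.89, 0.81 and -1.41 early and between -1.94 and -1.59 late.

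Another 3 genes, YDL241W, YOL014W and YCR102C, fell against every early array alike. YDL241W was at 0.86, 0.72 and 0.58 early and at -2.52, -1.06, -1.31 and -1.37 late, a 4.87-fold fall in which 3 of the 4 late values lay at background level (adjusted p = 0.0075). YOL014W fell 2.84-fold, from 1.5, 1.32 and 1.52 to -0.97, 0.37, 0.16 and 0.20 (adjusted p = 0.016). YCR102C was at -0.26, -0.06 and -0.32 and then between -1.65 and -1.57, at least 1.90-fold lower (adjusted p = 0.0007). With near-copy pairs averaged YCR102C passed (adjusted p = 0.038, but 0.20 with all near-copies averaged), YDL241W and YOL014W stood at 0.13 and 0.17, and the 6 genes of the preceding group at 0.22 to 0.29.

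All 7 arrays carried the signature of MATalpha cells. MF(ALPHA)1, the alpha pheromone gene, was at 2.88, 2.89 and 3.19 early and at 3.45, 3.45, 3.45 and 3.47 late (1.38-fold, adjusted p = 0.015), and SAG1, alpha agglutinin, was at 2.43, 2.43 and 1.74 and then at 0.97, 1.36, 1.32 and 1.33 (1.94-fold lower, adjusted p = 0.016). STE2, the receptor of MATa cells, lay between -2.75 and -2.36 in every array, at background level. URA3, the selectable marker that plasmids of this series carry, was at 3.51, 3.37 and 3.92 early and at 2.79, 3.10, 3.07 and 3.05 late, a 1.52-fold fall (adjusted p = 0.025, but 0.27 after median centring). HIS3 fell 1.53-fold (adjusted p = 0.012, but 0.067 and 0.057 after quantile normalization and median centring). With 27.1% of all genes called, 9 of 57 indicator genes for stress, nutrients, respiration and growth were called higher, 6 lower and 42 neither way. None of these genes passed with near-copy pairs averaged.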

How the data were processed

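RNA came from a hot phenol extraction with column cleanup and was labelled as biotin cRNA by 3' in vitro transcription, per the labels' protocols. Linear intensities of probe sets were deposited by the authors, and each of the 7 vector arrays averages 1 over its 10715 probe sets when tested on the file, so the authors' values had been divided by the array mean, which hides any shift in the RNA content of cells. How background was corrected and probes summarised, and with which software, is not given in the sources used here. The series text gives no scan or extraction batch.

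Names of probe sets came from the platform annotation and were looked up in a table of R64 genes. A single S. cerevisiae gene was matched by 5498 of them, while 3470 had no name, 1746 had a name absent from the table and 1 had several genes. For the 47 genes with several probe sets the brightest over the 7 arrays was used, which left 5449 genes. Intensities were log2-transformed without a floor, and late and early arrays were compared two-sided by lmFit and trended eBayes of limma 3.58.1 (R 4.3.3), with Benjamini-Hochberg adjusted p under 0.05 over all genes. The call procedure was tested on simulated data in which the 7 arrays were independent. That test has no bearing on near-copy arrays counted as separate replicates. Levels have SD over arrays.

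The gene lists and members were chosen with earlier results of these data known, so lists are described by counts and medians beside those of all genes, with no test of their own. Named genes were the 15 largest rises and 15 largest falls among called genes without overlap between groups and above background in at least 1 group, a fixed set of 57 indicator genes, and up to 5 called members of a list in its more frequent direction and up to 2 in the other. Others are marked as named after their values were seen. Not every gene that the rule allows is described.

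Replicates 1 and 2, and 5 and 7, were averaged in one further fit, and replicates 5, 6 and 7 together in another that was chosen after seeing the data. The random block fit took replicates 1 and 2, and 5 and 7, as blocks, and replicate 6 on its own. A lower bound on a fold was taken where every array of the dimmer group lay under the background limit, from that limit to the brighter group's mean. The plots were made in Python 3.11.15 with matplotlib 3.10.9.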

Additional observations from a re-analysis of the deposited data

Results flagged for a closer look

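Among the 4 late arrays, a value was marked where the gap from the highest or lowest array to its neighbour, divided by the group's range, exceeded Dixon's 95% critical value for 4 samples. This held for 21 of 151 values examined. The chance rate of about 1 in 20 groups holds for independent arrays and does not apply here. The late arrays other than replicate 4 are near-copies of each other, and replicate 4 lies further from them. That layout by itself favours marks on replicate 4, so the count cannot be read against chance. The early group of 3 was not examined. Replicate 4 was the odd array in 15 of the 21, the highest in 8 and the lowest in 7. Genes that set replicate 4 apart were FIT2, an iron-regulated mannoprotein (3.63 against -0.92 to -0.30 in the other late arrays), MIG2, a glucose-induced repressor (1.04), CYC1, cytochrome c (1.78), ORT1, the ornithine carrier (-0.92), SAG1, alpha agglutinin (0.97), and YOL014W (-0.97).

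List means that set replicate 4 apart, on the log2 level scale, were the iron regulon (1.01 against -0.65 to -0.37), genes under nitrogen catabolite repression (0.36), glycolysis and fermentation (3.28), heat shock chaperones (1.45), M to G1 and daughter cell genes (0.95) and cell wall integrity (1.96), each the highest. Purine and pyrimidine synthesis (1.12), respiratory assembly factors (-0.30) and mitochondrial ribosomal proteins (0.28 against 0.70 to 0.72) were each the lowest. Replicate 6 stood apart in 5 genes: BIO4 (0.66), VEL1 (-1.12), ADH4 (3.48) and SNO1 (-2.98) were lowest there and MDH1 (2.29) was highest. Replicate 7 was the highest for MF(ALPHA)1, at 3.47 against 3.45 in each of the other 3.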

How the results depend on the processing

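The count of called genes was 1476 with all 7 arrays as replicates. It was 14 with near-copy pairs averaged (2 early against 3 late samples), 16 with near-copies averaged to 2 against 2, a setting chosen after seeing the data, 35 with near-copies as a random block, and 4253 with array weights. Leaving out each replicate in turn gave 147 to 3866 calls, the fewest without replicate 2 and the most without replicate 3. The other settings gave 1182 to 1520: another scaling (quantile or median), eBayes without the trend or in its robust form, dim genes left out, and probe sets averaged per gene. Of the 122 genes named with a difference, 6 lost their call under quantile normalization, 12 under median centring, 98 with near-copy pairs averaged, 97 with near-copies averaged to 2 against 2 and 88 with the random block. The sign turned for 1 gene, HEM13, not called in any of these settings: its difference of -0.34 became 0.50 with array weights and ranged from -0.68 to 0.35 when each replicate was left out, positive only without replicate 3. No paired analysis was possible because the replicate numbers of the early and late groups do not overlap. Promoter motifs were not examined, since no promoter sequences were used here. Signal over background limits the dim genes: a fold is given as a bound where every array of the dimmer group lay at background level, and without a size where no bound above 1 can be had.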

Other observations

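The 4 CFTR arrays, which entered no test, give a range for the same genes. The thiamine genes lay at the early level there: THI7 between -1.13 and -0.58, THI20 between -0.50 and -0.29 and PET18 between -1.37 and -1.13. The zinc genes lay higher than in the early vector arrays, ZPS1 between 2.17 and 3.20 and ADH4 between 2.14 and 3.56. BIO5 ranged from -3.11 to 0.27 and BIO3 from -1.30 to 1.69. PHO11 lay between -1.18 and 0.08, near the late vector level, and CYC7 between 0.55 and 1.56, nearer to the early one. URA3 lay between 3.51 and 3.7, within the early range of 3.37 to 3.92.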
